A study of Mus musculus with 2 samples.

Results

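The receptors described here are 10 genes of the natural killer (NK) gene complex: the Ly49 genes *Klra3*, *Klra4*, *Klra7*, *Klra8* and *Klra9*, the NKR-P1 genes *Klrb1c* and *Klrb1f*, and *Klrd1*, *Klrk1* and *Klrc1*. They were taken by name, with earlier results of these data known, and are 10 of the 17232 genes of the deposited table. The data are scRNAseq of CD45.2+ immune cells from B16-OVA tumors at day 14 of growth; these tumors grow from a melanoma cell line engineered to make ovalbumin, a model antigen. One group was *Maoa* WT mice and the other *Maoa* KO mice, in which the gene of monoamine oxidase A carries a hypomorphic 129S-derived allele (129S-Maoa tm1Shih/J) crossed to C57BL/6J for more than 9 generations; mice of the study were 8 to 12 weeks old and female unless stated otherwise. Each group was 1 library from 10 pooled tumors, with no replicate, so no test between genotypes was possible and every interval below covers counting error only. A value in CPM is a gene's UMIs (counted transcript molecules) out of every 1000000 UMIs of the same cells, with an exact 95% Poisson interval where one is given.

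Ly49 receptors are lectin-like homodimers on mouse NK cells that bind class I MHC molecules or viral decoys of them. The products of *Klra3* (Ly49C), *Klra7* (Ly49G) and *Klra9* (Ly49I) are inhibitory receptors, which recruit the phosphatase SHP-1, whereas those of *Klra4* (Ly49D) and *Klra8* (Ly49H) are activating receptors, which signal through the adaptor DAP12 encoded by *Tyrobp*. Each NK cell expresses its own subset of the Ly49 genes, so a population is a mixture of cells with different combinations. *Klrb1c* encodes NK1.1, the antigen by which NK cells of C57BL/6 mice are stained, and *Klrb1f* encodes NKR-P1F; *Klrd1* encodes CD94, which pairs with NKG2A, the product of *Klrc1*, to form an inhibitory receptor for the nonclassical molecule Qa-1; and *Klrk1* encodes NKG2D, an activating receptor for stress-induced ligands.

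The WT-labelled library held 2392 cells and 28801253 UMIs (median 9887.5 per cell), and the KO-labelled one 2630 cells and 23702018 UMIs (median 6945.5); 13 barcodes occurred in both. *Maoa* was counted 7 times in the WT-labelled library and 15 times in the KO-labelled one, so its transcript level did not bear out the labels, and a change of the transcript by this allele cannot be checked at this depth. The NK class held 181 and 261 cells, was clustered without any Klr gene, and all 11 of its markers had UMIs in both libraries. At least 1 UMI of *Cd3d*, *Cd3e* or *Cd3g*, which define T cells, was present in 92 of the 181 and 95 of the 261 cells, and the members' ratios without those cells are given after the values of all NK cells.

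All 10 genes lie on chromosome 6 of GRCm38 within 1559.1 kilobases. From the centromere side they run *Klrb1c* (chr6:128778485-128789215, minus strand), *Klrb1f* (chr6:129045901-129057464, plus), *Klrd1* (chr6:129591782-129598775, plus), *Klrk1* (chr6:129610323-129623864, minus), *Klrc1* (chr6:129666015-129678973, minus), *Klra4* (chr6:130043731-130067271, minus), *Klra8* (chr6:130115226-130129898, minus), *Klra9* (chr6:130178675-130193112, minus), *Klra7* (chr6:130218605-130233322, minus) and *Klra3* (chr6:130323289-130337574, minus). The 5 Ly49 genes thus lie on 1 strand between 130043731 and 130337574, with *Klra10* between *Klra7* and *Klra3*. Each Ly49 gene is given by 75 bases upstream of their annotated RefSeq starts (GRCm38.p6, minus strand), because these members went together between NK cell subsets and the stretch shows which of them are closest in sequence. The stretches were aligned on the longest run of bases that a promoter window of each gene holds, TTTCCTCTTTT, so likeness around that run is how they were chosen; where a gene has several annotated starts, the first window with the run was used. Capitals mark the 25 positions at which all 5 genes have the same base:
Klra3, chr6:130337627-130337701: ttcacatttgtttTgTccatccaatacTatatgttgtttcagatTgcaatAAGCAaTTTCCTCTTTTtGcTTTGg
Klra9, chr6:130193132-130193206: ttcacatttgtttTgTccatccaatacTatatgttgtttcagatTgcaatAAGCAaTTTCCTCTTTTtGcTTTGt
Klra7, chr6:130233393-130233467: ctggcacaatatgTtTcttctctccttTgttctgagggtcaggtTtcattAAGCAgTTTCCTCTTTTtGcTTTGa
Klra8, chr6:130129960-130130034: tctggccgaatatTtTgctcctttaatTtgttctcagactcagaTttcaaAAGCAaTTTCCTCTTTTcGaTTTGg
Klra4, chr6:130067332-130067406: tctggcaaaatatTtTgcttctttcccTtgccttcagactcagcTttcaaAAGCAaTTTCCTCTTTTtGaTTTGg
The inhibitory pair *Klra3* and *Klra9* shared 74 of 75 bases and the activating pair *Klra4* and *Klra8* shared 64, while *Klra7* shared 43 with *Klra3*, 43 with *Klra9*, 38 with *Klra4* and 37 with *Klra8*. Searched on both strands, the run TTTCCTCTTTT was in 49 of 32851 RefSeq promoter windows (0.149%) of 250 bases before to 50 after a start; 8 of 11 Klra genes with a window had it and none of the 4 other members with a window did. A match of letters is a description of this window and shows no binding site.

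Because the libraries were read from the 3′ end, likeness of transcript ends matters for which gene a read is assigned to. Within the last 500 bases of the longest coding transcript, 134 of 411 windows of 90 bases in *Klrc1* also occurred in *Klrc2*. For *Klra9*, 58 of 411 windows occurred in other genes, 55 of them in the pseudogene *Klra11-ps*, 5 in *Klra10* and 3 in *Klra3*, a window counting for each; for *Klra3*, 35 of 411 did, 32 of them in *Klra10*; and for *Klra7*, 42 of 411 did, all in *Klra13-ps*. *Klra4*, *Klra8*, *Klrb1c*, *Klrb1f*, *Klrd1* and *Klrk1* had no window of 90 bases in common with another gene. Of shorter windows of 20 bases, however, 43.9% of those of *Klra8* occurred in *Klra9*. Annotated genes overlap *Klrb1c* on its own strand (*Gm44511*) and *Klrb1f* on the other strand (*Gm43992* and *Gm44000*). Values of *Klra3*, *Klra7*, *Klra9* and *Klrc1* are thus less certain than the others as values of 1 gene.

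The members fell into a group counted mostly in NK cells and a group counted mostly in T cells. NK cells held 72.4% of all UMIs of the 5 Ly49 genes, from 53.1% of *Klra3* to 84.1% of *Klra4*, and 74.7% of *Klrb1c* and 73.9% of *Klrb1f*. T cells held 83.7% of *Klrc1* UMIs, 65.8% of *Klrd1* and 56.2% of *Klrk1*, with 13.5%, 17.7% and 22.4% in NK cells; in CPM, however, *Klrd1* and *Klrk1* were higher in NK cells than in any T cell cluster or other class of the same library. DCs held 11.5% of *Klrd1* and 13.4% of *Klrk1* UMIs. For comparison, the sum of the 5 Ly49 genes was 7.92 CPM (94 UMIs) and 22.1 CPM (198 UMIs) in TAM/monocyte cells of the libraries labelled WT and KO, and a Ly49 UMI was in 1.34% and 4.02% of them once each cell was thinned to 3200 UMIs. *Klra3* made up 11 of the 94 and 71 of the 198 UMIs, and the other 4 genes were at 6.99 and 14.2 CPM. In NK cells the same shares were 75.7% and 80.3%.

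**Figure D1:**
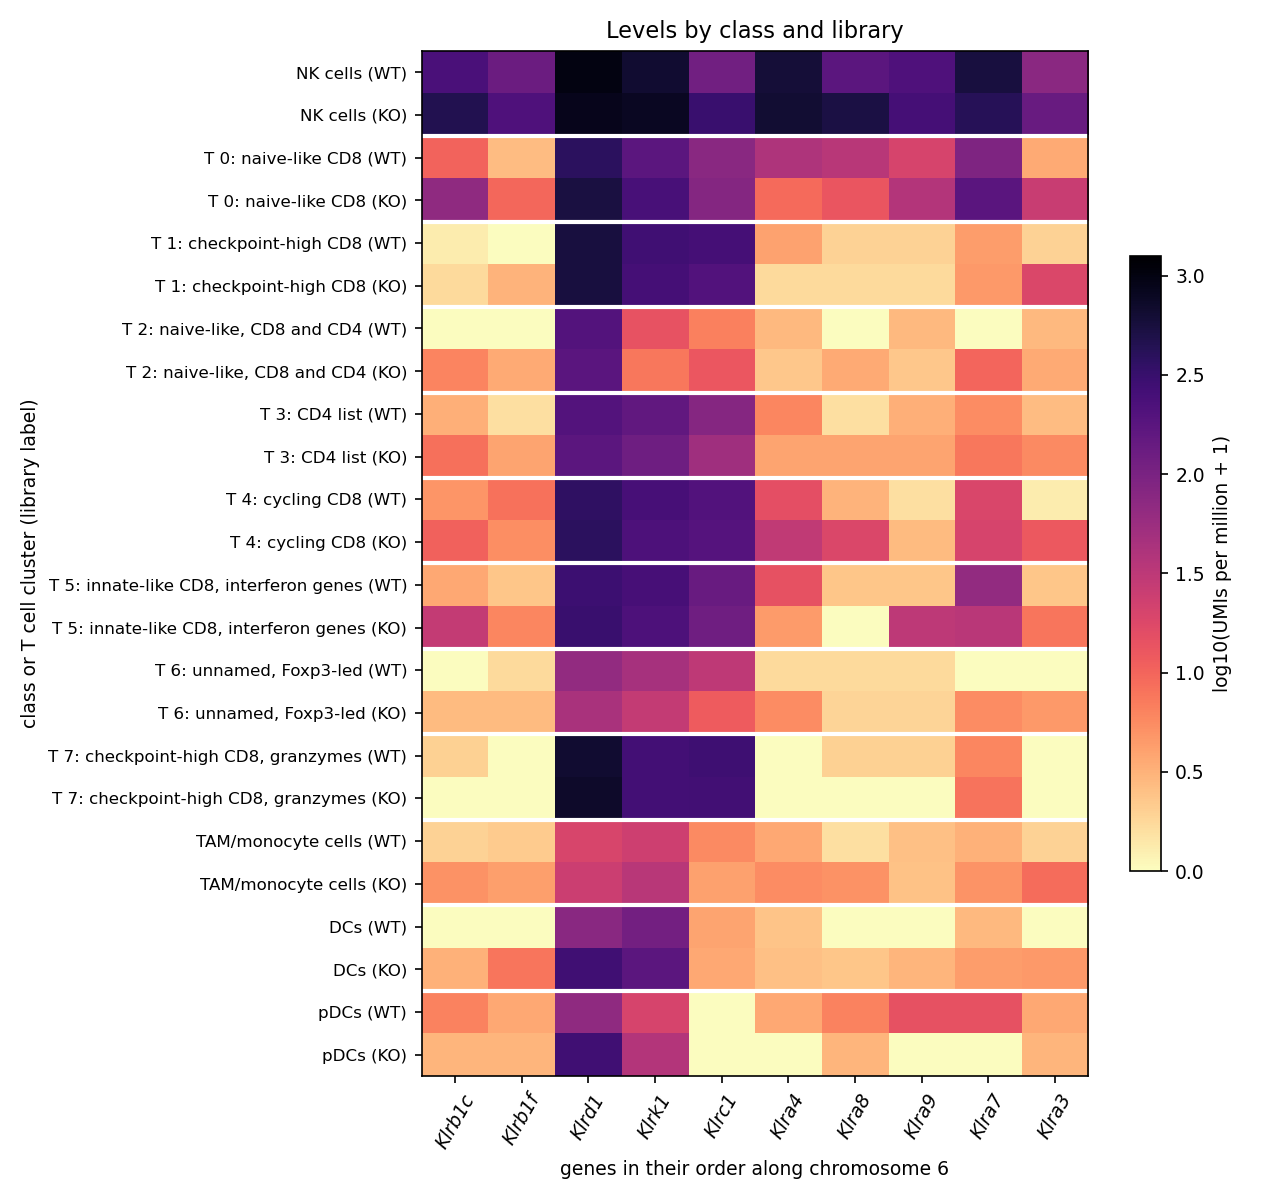
Level of the 10 genes, in their order along chromosome 6 (columns), in each class or T cell cluster of each library (rows, with the library label in brackets), as log10 of CPM plus 1. The Ly49 and NKR-P1 genes are darkest in NK cells, *Klra7* is next darkest in the naive-like CD8 T cells, and *Klrd1*, *Klrk1* and *Klrc1* are dark in NK cells and in all CD8 T cell clusters, and the first of these also in DCs and pDCs of the KO-labelled library.

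Of the 10 members, the activating Ly49 gene *Klra8* and *Klrc1* differed most between the libraries in NK cells. *Klra8* had 191 UMIs in NK cells of the WT-labelled library (172 CPM) and 618 in the KO-labelled one (517 CPM), a log2 ratio of 1.59 (95% interval 1.35 to 1.83). *Klrc1* had 127 UMIs (114 CPM) and 367 UMIs (307 CPM), a log2 ratio of 1.42 (1.13 to 1.73). Both were thus higher in the KO-labelled library with an interval above 1, that is, by more than doubling. These were the members past a log2 ratio of 1, 2 of 10, where 0.437% of 2517 genes (those counted 100 times or more in NK cells) were that much higher and 1.19% that much lower; from 20 UMIs these shares were 2.88% and 2.8% of 6975 genes. All 10 members had at least 100 UMIs; their median log2 ratio was 0.48, against 0.01 over all 2517 genes, and 8 of 10 ratios lay above 0.

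The other activating Ly49 gene did not follow *Klra8*: *Klra4* had 666 UMIs (599 CPM) and 768 UMIs (642 CPM), a log2 ratio of 0.10 (-0.05 to 0.25). Yet it was counted in fewer NK cells of the KO-labelled library, in 43.3% (95% Clopper-Pearson interval 37.2 to 49.5) against 69.1% (61.8 to 75.7) of those of the WT-labelled library, and in 44.5% against 62.4% once thinned. The cells that held it had a mean of 6.80 UMIs in the KO-labelled library and 5.33 in the WT-labelled one. The total was therefore similar but came from a smaller share of cells. *Klra8* moved the other way, from 34.3% to 47.5% of NK cells, and its mean in the cells that held it rose from 3.08 to 4.98 UMIs.

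The inhibitory Ly49 genes went in different directions. *Klra3* had 82 UMIs (73.7 CPM) in the WT-labelled library and 163 (136 CPM) in the KO-labelled one, a log2 ratio of 0.88 (0.50 to 1.29). *Klra7* had 617 UMIs (554 CPM) and 501 UMIs (419 CPM), a log2 ratio of -0.40 (-0.58 to -0.23). *Klra9* had 236 UMIs (212 CPM) and 300 UMIs (251 CPM), and its log2 ratio of 0.24 had an interval that reached 0 (-0.01 to 0.49). *Klra3* was thus higher and *Klra7* lower in the KO-labelled library, and the sum of the 5 genes went from 1610.4 to 1965 CPM (log2 ratio 0.29, 0.20 to 0.38). *Klra3* showed its difference in UMIs per cell: 55 of 181 NK cells of the WT-labelled library held it, none with more than 3 UMIs, and 61 of 261 of the KO-labelled one did, with up to 8. Among cells with *Klra3*, 65.5% in the WT-labelled library held a single UMI, against 36.1%.

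Both NKR-P1 genes were higher in NK cells of the KO-labelled library. *Klrb1c* (NK1.1) had 259 UMIs (233 CPM) and 550 UMIs (459.9 CPM), a log2 ratio of 0.98 (0.77 to 1.201), and was in 69.1% and 78.2% of NK cells. *Klrb1f* had 144 UMIs (129 CPM) and 252 UMIs (211 CPM), a log2 ratio of 0.70 (0.40 to 1.01). The 2 receptors found in nearly every NK cell changed least among those whose interval left out 0. *Klrd1*, in 93.9% and 91.6% of NK cells, had 1118 UMIs (1005 CPM) and 1026 UMIs (858 CPM), a log2 ratio of -0.23 (-0.35 to -0.10); *Klrk1*, in 95.6% and 94.6%, had 734 UMIs (659.6 CPM) and 938 UMIs (784 CPM), a log2 ratio of 0.25 (0.11 to 0.39). CD94 was thus slightly lower while its partner NKG2A was higher: *Klrc1* was in 33.1% (26.3 to 40.5) of NK cells of the WT-labelled library and 54.8% (48.5 to 60.9) of the KO-labelled one.

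In NK cells without a Cd3 UMI, the log2 ratio was 1.62 for *Klra8*, 1.70 for *Klrc1*, 0.96 for *Klrb1c*, 0.66 for *Klra3* and 0.66 for *Klrb1f*. It was -0.55 for *Klra7*, -0.20 for *Klrd1* and 0.24 for *Klrk1*. *Klra4* was at -0.01 (-0.20 to 0.18) and *Klra9* at 0.05 (-0.29 to 0.40), so neither left out 0, as in all NK cells.

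**Figure D2:**
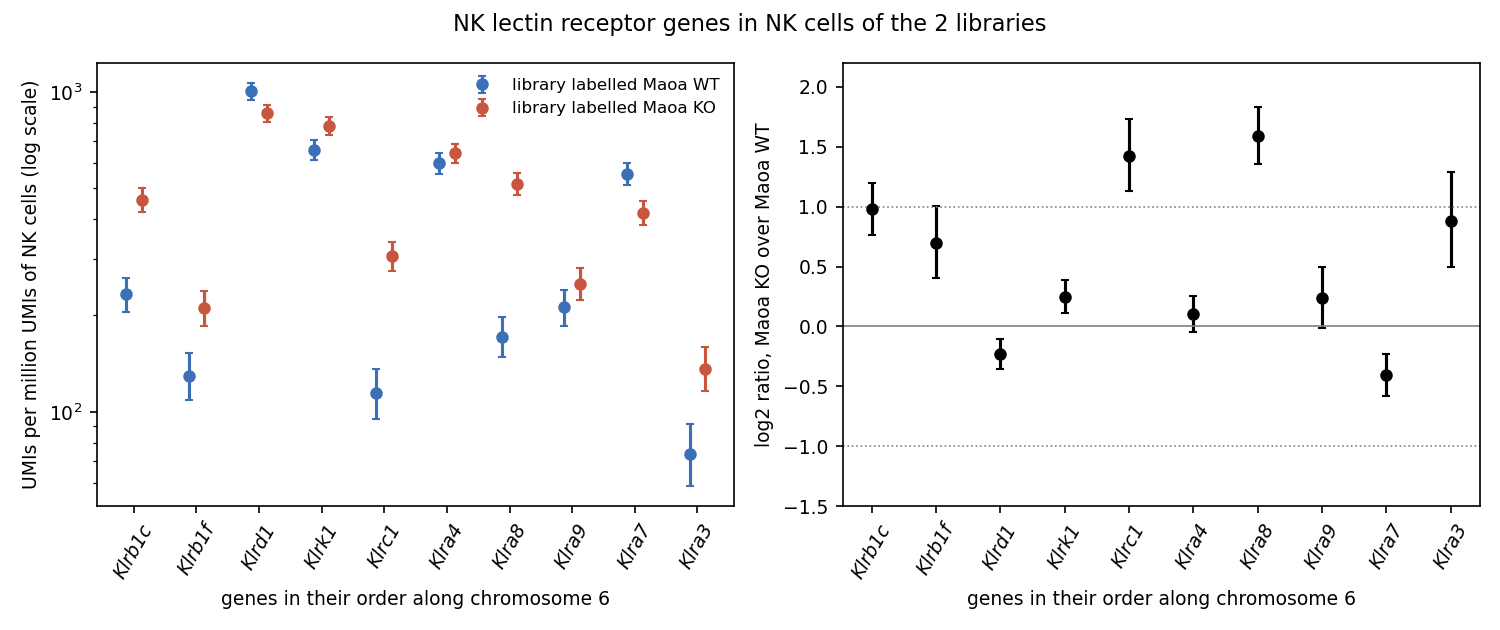
Left, CPM in NK cells (log scale) for each gene in the libraries labelled *Maoa* WT (181 cells) and *Maoa* KO (261 cells); right, the log2 ratio of KO over WT; bars are exact 95% intervals for counting error and dotted lines mark ratios of -1 and 1. *Klra8* (1.59) and *Klrc1* (1.42) lie above 1, *Klra7* (-0.40) and *Klrd1* (-0.23) below 0.

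NK cells clustered again without Klr genes formed 6 subclusters, whose mix differed between the libraries. Subcluster 0 (45 and 94 cells) held all 3 markers of earlier NK cells and was led by *Tcf7*; subcluster 1 (42 and 71 cells) held 3 of 5 markers of later NK cells, with *Gzma* and *Klf2* among its leading genes; and subcluster 2 (60 and 23 cells), led by *Slc16a3*, *Spp1* and *Gzmc*, stayed unnamed. Subcluster 3 (16 and 32 cells) was named ILC1-like. It held 4 of 6 ILC1 markers, *Tmem176b*, *Cxcr6* and *Il7r*, which were among its leading genes, and *Cd200r1*. *Itga1* (8.33% of its cells) and *Tnfsf10* (6.25%) were under the limit of 10% of cells, and *Tnfsf10* was at 11.5 CPM against 12.1 CPM in all NK cells. Subcluster 4 (12 and 23 cells) was led by *Cd3e* and *Cd3g*, and subcluster 5 (6 and 18 cells), led by *Il4i1*, *Ccl1* and *Crtam*, stayed unnamed.

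The Ly49 genes were lower in the ILC1-like subcluster than in the other NK cells pooled. They did not set it apart from subcluster 5 in the WT-labelled library. Their sum was 310.1 CPM (33 UMIs) in ILC1-like cells of the WT-labelled library and 195 CPM (30 UMIs) in those of the KO-labelled library, against 1748 and 2227 CPM in the other NK cells; over both libraries the log2 ratio was -3.03 (-3.42 to -2.68). Over both libraries each of the 5 genes was lower there, from -2.20 for *Klra9* to -3.98 for *Klra4*. Within a library 9 of the 10 intervals lay under 0, that of *Klra3* in the WT-labelled one reaching 0.12 (3 UMIs in ILC1-like cells). *Klra7* was at -1.62 (-2.38 to -1.02) in the WT-labelled library and, from 1 UMI, -5.62 (-11.51 to -3.72) in the KO-labelled one. *Klrc1* was the reverse, at 301 CPM (32 UMIs) and 772 CPM (119 UMIs) in ILC1-like cells against 94.4 and 238 CPM in the others, a log2 ratio of 1.79 (1.51 to 2.07). Among the 6 subclusters, *Klrc1* was highest in the ILC1-like one in both libraries. Over both libraries, 5 of the 10 members were lower and 1 higher by more than 1 in ILC1-like cells, where 2.07% of 2517 genes were that much lower and 1.15% that much higher. Of the remaining members, over both libraries, *Klrb1f* was at 0.58 (0.16 to 0.97), *Klrd1* at -0.51 (-0.75 to -0.29) and *Klrk1* at 0.29 (0.08 to 0.49), while *Klrb1c* was at 0.07 (-0.26 to 0.38). *Klrb1f* was at 1.21 (0.54 to 1.80) in the WT-labelled library and 0.14 (-0.43 to 0.65) in the KO-labelled one. *Klrd1* was at -0.94 (-1.36 to -0.57) and -0.19 (-0.49 to 0.08). With NK cells clustered at resolution 0.5 the ratio of *Klrk1* changed sign to -0.040 and that of *Klrb1c* to -0.51 (-0.83 to -0.21). The unnamed subcluster 5 was likewise low, with Ly49 sums of 307 and 536 CPM, from 15 and 64 UMIs, and its *Klrd1* was at 328 and 193 CPM.

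The library differences in NK cells were also present with both libraries weighted to 1 mix of subclusters: the log2 ratio was then 1.74 for *Klra8*, 1.22 for *Klrc1*, 0.998 for *Klrb1c*, 0.89 for *Klra3* and -0.33 for *Klra7*. *Klra8*, *Klrc1* and *Klrb1c* had ratios above 0 in each of the 6 subclusters, with intervals across 0 in 1 subcluster for each gene. *Klrc1* ratios lay between 0.89 (-0.16 to 2.27, subcluster 5) and 1.34 and *Klrb1c* ratios between 0.46 (-0.17 to 1.04, subcluster 2) and 2.68, the last from 1 and 23 UMIs (0.61 to 8.60). *Klra8* ratios were 1.59, 1.83, 1.504 and 0.75 in subclusters 0 to 3, where the last had an interval across 0 (-1.18 to 3.43), and its counts were 0 and 33 UMIs in subcluster 4 and 0 and 19 in subcluster 5. *Klra3* was higher in 5 of 6 and *Klra7* in 1 of 6. *Klrd1*, lower over all NK cells, had ratios from -0.78 to 0.47. It was higher in 2 of 6, among them the ILC1-like subcluster (545 and 759 CPM). For *Klra7* the largest subclusters did not differ alike: it was at 541 and 532 CPM in subcluster 0, at 512 and 616 CPM in subcluster 1, and at 738 and 269.8 CPM in subcluster 2, which held 272 of the 617 *Klra7* UMIs of the WT-labelled library. The Ly49 sum was higher in the KO-labelled library in subclusters 0, 1, 4 and 5 and lower in 2 and 3.

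**Figure D3:**
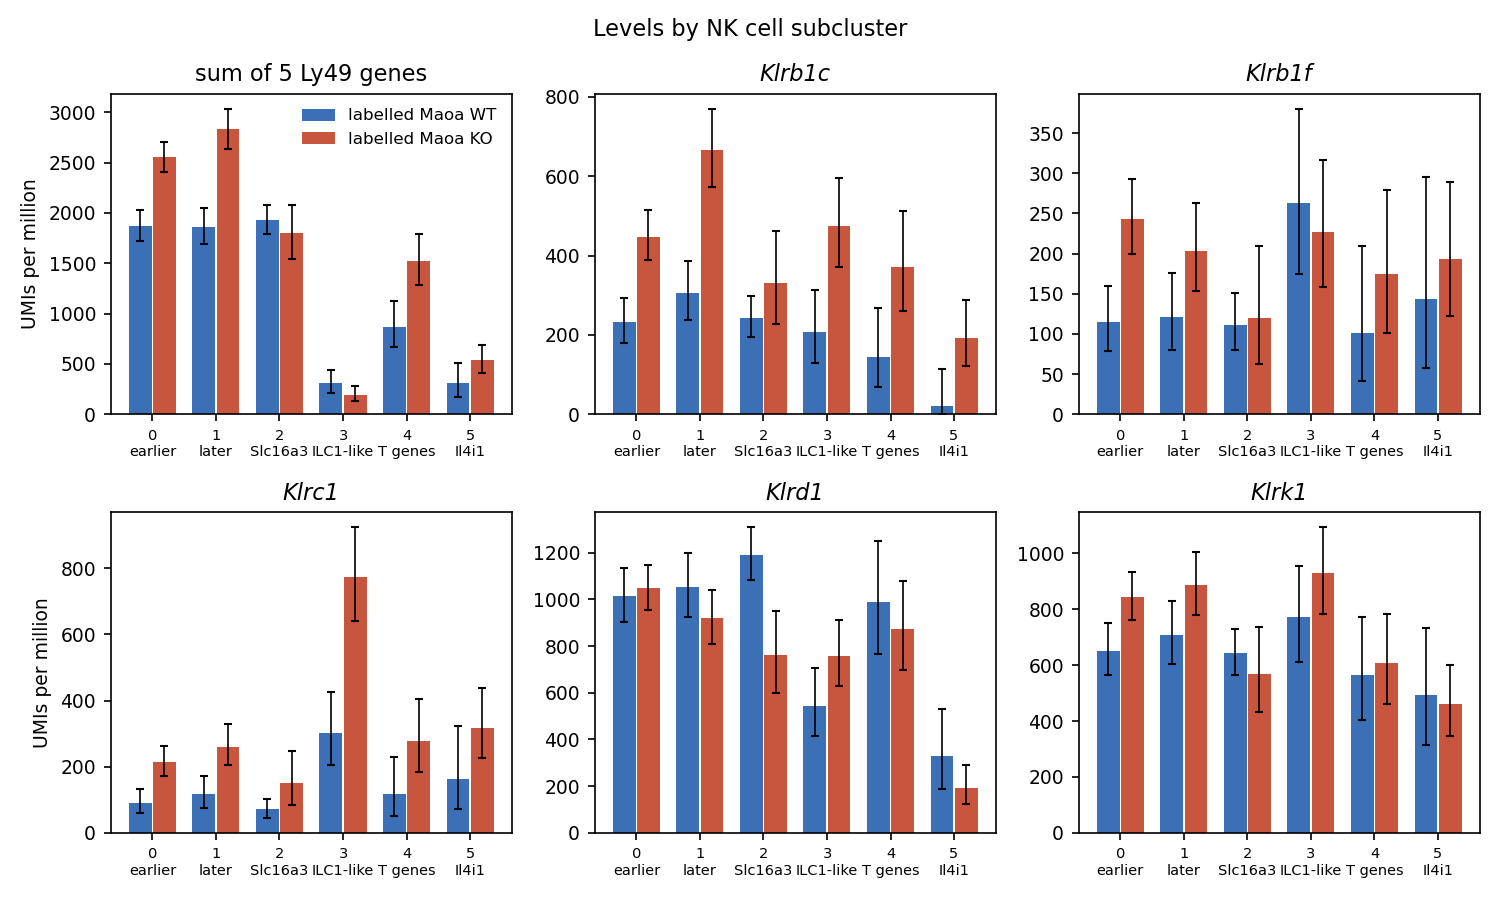
CPM in each of the 6 NK cell subclusters (x axis, with a name or leading gene) for the sum of the 5 Ly49 genes and for the other 5 members; blue, library labelled *Maoa* WT; red, library labelled *Maoa* KO; bars, exact 95% Poisson intervals. The Ly49 sum drops to 310.1 and 195 CPM in the ILC1-like subcluster 3, where *Klrc1* is at 301 and 772 CPM.

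Single NK cells held combinations of Ly49 genes, and these combinations differed between the libraries. With each cell thinned to 3200 UMIs, which left out 43 cells of the KO-labelled library and 0 of the WT-labelled one, none of the 5 genes was counted in 44 of 181 cells labelled WT and 43 of 218 labelled KO. At least 2 genes were counted in 55.8% (48.2 to 63.2) and 61.5% (54.7 to 68.0), so the shares of cells with several Ly49 genes overlapped in their intervals. All 5 genes were counted in 20 cells (11.05%, 6.88 to 16.5) of the WT-labelled library and 2 cells (0.917%, 0.111 to 3.27) of the KO-labelled one, where the product of the single shares gives 1.41 and 1.35 cells. Cells with all 5 were thus more frequent in the WT-labelled library, and most of them rested on single UMIs: with a gene counted from 2 UMIs, 1 and 0 cells remained.

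Joint detection above the product of shares was highest in the WT-labelled library for the 3 pairs among *Klra3*, *Klra8* and *Klra9*. *Klra3* and *Klra8* were found together in 32 cells, 2.62 times the product of their shares (1.79 to 3.69), *Klra3* and *Klra9* in 35 cells, 2.38 times (1.66 to 3.31), and *Klra8* and *Klra9* in 45 cells, 2.32 times (1.69 to 3.11). The same pairs were at 1.198 (0.76 to 1.80), 1.23 (0.74 to 1.92) and 1.25 (0.89 to 1.70) times in the KO-labelled library, with intervals that included 1. The other 7 pairs lay between 1.27 and 1.47 times in the WT-labelled library and between 0.87 and 1.35 times in the KO-labelled one. Of these, the intervals left out 1 for *Klra4* with *Klra3* (1.02 to 1.99), *Klra8* (1.08 to 1.92), *Klra9* (1.09 to 1.85) and *Klra7* (1.001 to 1.60) in the former, and for *Klra4* with *Klra7* (1.03 to 1.74) in the latter. Outside the ILC1-like subcluster 3 of these 5 intervals included 1: *Klra4* with *Klra3* (0.97 to 1.90) and with *Klra7* (0.94 to 1.51) in the WT-labelled library, and *Klra4* with *Klra7* (0.93 to 1.57) in the KO-labelled one. The 3 pairs among *Klra3*, *Klra8* and *Klra9* were there at 2.41, 2.19 and 2.14 times in the WT-labelled library. These ratios describe cells of 1 library each, and cells with no Ly49 gene raise all of them. The 3′ ends are also partly alike. Of windows of 20 bases, 67.8% of those of *Klra3* and 43.9% of those of *Klra8* occurred in *Klra9*. The part of read assignment in these ratios was not tested.

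*Klrc1* was counted less often in NK cells with more Ly49 genes, in both libraries. Of cells labelled WT it was in 36.4% (16 of 44) of those with none of the 5 genes, 22.2% (8 of 36) with 1 and 17.8% (18 of 101) with 2 or more. Of cells labelled KO it was in 74.4% (32 of 43), 56.1% (23 of 41) and 37.3% (50 of 134). The intervals of the first and last groups did not overlap in the KO-labelled library (58.8 to 86.5 and 29.1 to 46.1), while they did in the WT-labelled one (22.4 to 52.2 and 10.9 to 26.7). Outside the ILC1-like subcluster the shares fell in the same order, but the intervals of the first and last groups overlapped in both libraries: 36.4% (20.4 to 54.9) and 16.3% (9.63 to 25.2) of cells labelled WT, and 63.6% (40.7 to 82.8) and 36.4% (28.2 to 45.2) of cells labelled KO. At each number of Ly49 genes the share was higher in the KO-labelled library.

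**Figure D4:**
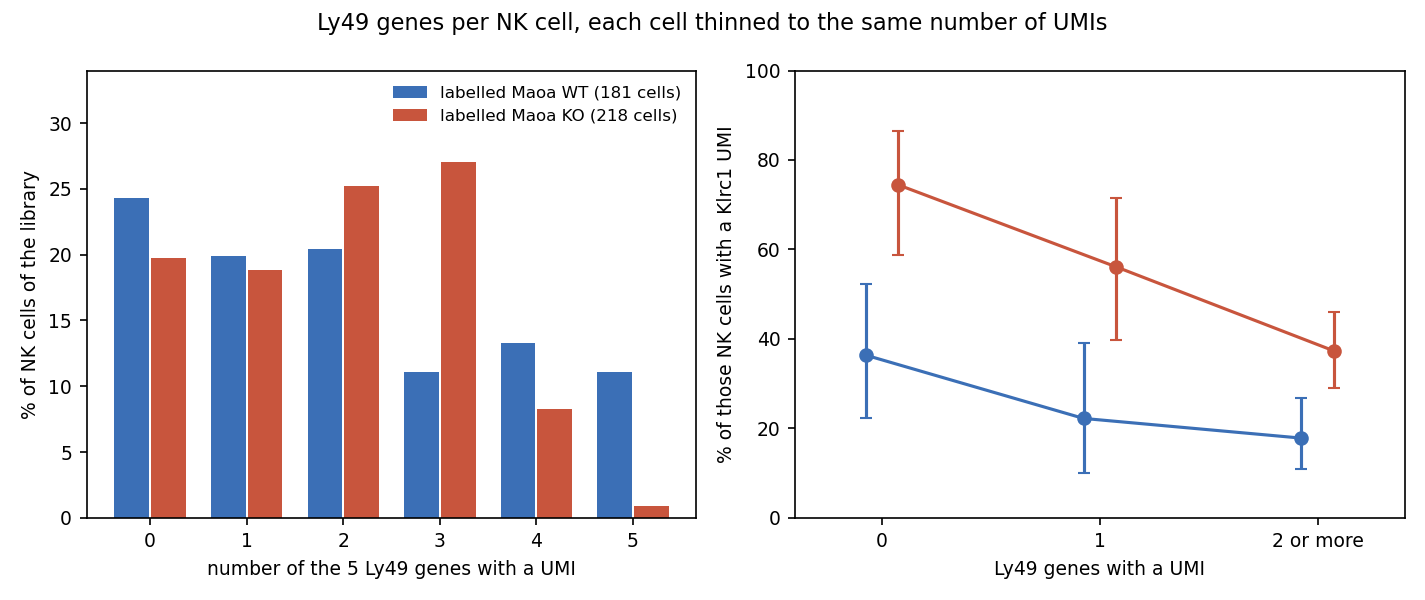
Left, share of NK cells of each library by how many of the 5 Ly49 genes had a UMI, each cell thinned to 3200 UMIs; right, share of those NK cells with a *Klrc1* UMI, by number of Ly49 genes, with exact 95% intervals. All 5 genes were counted in 20 of 181 cells labelled WT and 2 of 218 labelled KO, and the *Klrc1* share falls from left to right in both libraries.

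Among T cells, Ly49 genes were concentrated in 1 cluster. The T cells formed 8 clusters without Klr genes; cluster 0 (130 cells labelled WT and 394 labelled KO) was a naive-like CD8 cluster with 7 of 8 naive-like markers, a *Cd8a* level 65.9 times that of *Cd4*, and *Samd3*, *Bcl2* and *Ly6c2* among its leading genes. Its leading gene was *Klra7*, although no Klr gene was used in clustering. The naive-like marker not detected by the naming rule was *Ccr7*, and *Ly6c2* is on the list of innate-like CD8 markers. *Nkg7* was at 1726 and 1394 CPM in this cluster and *Il2rb* at 246 and 185 CPM. Naive-like is thus a name by marker list, and whether the cells are naive was not tested. Once thinned, 34.6% and 35.6% of its cells held a Ly49 UMI, against 0% to 5.21% of the other CD8 clusters in the WT-labelled library and 0% to 12.3% in the KO-labelled one. *Klra7* was present in 30 of the 45 Ly49-positive cells of the WT-labelled library and 99 of the 131 of the KO-labelled one. At least 2 Ly49 genes were counted in 19 of the 45 and 22 of the 131 cells, against 101 of 137 and 134 of 175 Ly49-positive NK cells. Most Ly49-positive T cells of this cluster thus held 1 of the 5 genes, and the inhibitory *Klra7* was in most of them.

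Within cluster 0 the members divided otherwise than in NK cells. *Klra7* had 107 UMIs (91.4 CPM) in the WT-labelled library and 360 (175 CPM) in the KO-labelled one, a log2 ratio of 0.93 (0.62 to 1.26), where it was lower in NK cells. Both activating Ly49 genes were lower in the KO-labelled library: *Klra4* had 46 UMIs in 23 cells and 17 UMIs in 10 cells, a log2 ratio of -2.23 (-3.15 to -1.42), and *Klra8* had 39 UMIs in 23 cells and 25 UMIs in 10 cells, a log2 ratio of -1.45 (-2.25 to -0.70). *Klra8* therefore had opposite directions in NK cells and in this cluster, a difference that was not tested. In the cycling CD8 cluster 4 both genes were higher in the KO-labelled library, *Klra8* with 7 and 20 UMIs (2.999, 1.76 to 4.55) and *Klra4* with 48 and 33 UMIs (1.01, 0.32 to 1.68), and over all CD8 clusters, whose mix differs, *Klra8* was at 0.66 (0.05 to 1.26) and *Klra4* at -0.30 (-0.80 to 0.18). *Klra3* had 3 and 51 UMIs, a log2 ratio of 3.06 (1.64 to 5.59), *Klra9* 22 and 75 UMIs, a log2 ratio of 0.93 (0.25 to 1.71), and NK1.1 (*Klrb1c*) 11 UMIs in 6 cells and 137 UMIs in 81 cells, a log2 ratio of 2.76 (1.94 to 3.86). *Klrb1c* was so found in 4.62% and 20.6% of the cells. *Klrd1* (383 and 535 CPM) and *Klrk1* (172 and 242 CPM) were moderately higher in the KO-labelled library, at 0.48 (0.32 to 0.64) and 0.49 (0.25 to 0.74), and *Klrc1* was at 74.4 and 82.9 CPM, at 0.15 (-0.22 to 0.55). Of the 5 members with at least 100 UMIs in this cluster 1, *Klrb1c*, was higher by more than 1 and 0 were that much lower, where 0.882% and 4.93% of 3062 genes were.

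NK markers were counted in cluster 0 below their level in NK cells. All 11 NK markers had UMIs in it, summing to 3164 and 2638 CPM against 15006 and 14022 CPM in NK cells; the defining *Ncr1* was at 8.55 and 9.70 CPM against 359 and 436 CPM in NK cells. Without cells that held *Ncr1* or lacked Cd3 UMIs, 119 and 379 cells remained, and the log2 ratio was 1.01 for *Klra7*, -1.98 for *Klra4*, -1.48 for *Klra8*, 3.26 for *Klra3*, 1.62 for *Klra9* and 3.13 for *Klrb1c*. These 6 ratios kept their sign without those cells, and the ratio of the Ly49 sum was 0.68 without and 0.46 with them.

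**Figure D5:**
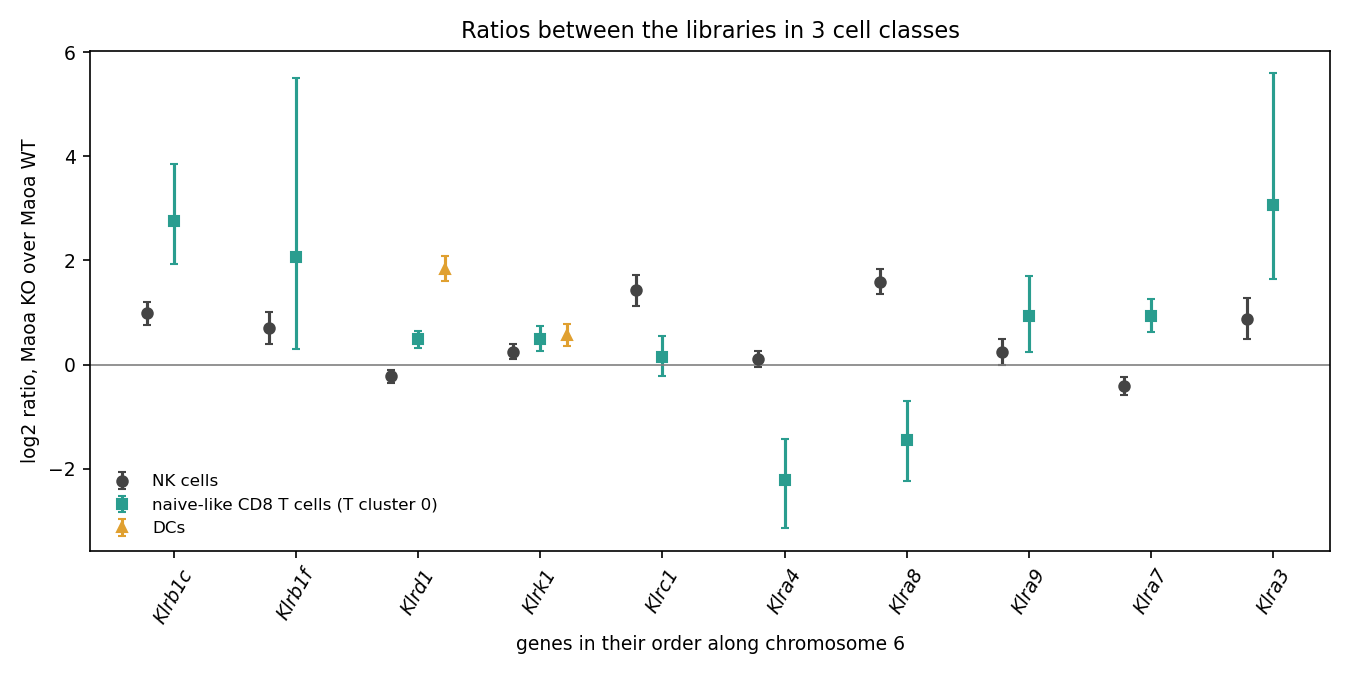
Log2 ratio of the library labelled *Maoa* KO over that labelled *Maoa* WT for each gene in NK cells (circles), naive-like CD8 T cells (squares) and DCs (triangles), with exact 95% intervals; genes with fewer than 20 UMIs or none in the WT-labelled library are left out of a class. *Klra8* lies at 1.59 in NK cells and -1.45 in the T cells, *Klra7* at -0.40 and 0.93, and *Klrd1* at -0.23 in NK cells and 1.84 in DCs.

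*Klrd1*, *Klrk1* and *Klrc1* were counted in every CD8 cluster. The Ly49 sum was at 9.04 and 23.2 CPM in cluster 1, near its 7.92 and 22.1 CPM in TAM/monocyte cells, and between that and cluster 0 in clusters 4 (35.5 and 78.5 CPM) and 5 (80.5 and 73.2 CPM). In cluster 7 it was at 6.99 and 7.07 CPM, from 7 and 2 UMIs. *Klrc1* was highest in the checkpoint-high cluster 7, which was led by granzyme genes (43 and 10 cells), at 286 CPM (253 to 321) and 265 CPM (209 to 332), followed by the checkpoint-high cluster 1 (262 and 133 cells) at 251 CPM (234 to 268) and 203 CPM (180.2 to 228), and by the cycling cluster 4 (182 and 64 cells) at 201 and 193 CPM. In the interferon gene-led innate-like cluster 5 (96 and 123 cells) it was at 137 and 119 CPM, and in cluster 0 at 74.4 and 82.9 CPM. The order of *Klrc1* levels was the same in both libraries, although neighbours such as clusters 7 and 1 in the WT-labelled library had intervals that met. In cluster 1 *Klrc1* was lower in the KO-labelled library, 289 against 832 UMIs, a log2 ratio of -0.30 (-0.50 to -0.11), opposite to its direction in NK cells.

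*Klrd1* had the same order of clusters in both libraries, at 653 and 714 CPM in cluster 7, 546 and 549.7 CPM in cluster 1, 383 and 535 CPM in cluster 0, 364 and 387 CPM in cluster 4 and 286 and 309.7 CPM in cluster 5. *Klrk1* (NKG2D) lay between 245 and 276 CPM in clusters 1, 4, 5 and 7 of the WT-labelled library and between 217 and 258 CPM in those of the KO-labelled library. In cluster 0 it was at 172 and 242 CPM (0.49, 0.25 to 0.74). Over all 5 CD8 clusters the libraries were close in *Klrk1* (249 and 237 CPM) and *Klrd1* (453 and 493 CPM), whereas the Ly49 sum was at 45.2 and 126 CPM, with cluster 0 being 130 of 713 and 394 of 724 CD8 cells. Of the 8 members with at least 100 UMIs over these clusters, 4 were higher by more than 1 and 0 lower, where 1.14% and 1.88% of 7569 genes were; the different mix of clusters enters these ratios. The clusters low in *Klrk1* were the mixed CD8 and CD4 naive-like cluster 2, at 12.96 and 6.50 CPM, and the unnamed *Foxp3*-led cluster 6, at 45.8 and 26.9 CPM. With suspected doublets left out, the Ly49 sum over all CD8 clusters was 70.5 and 165 CPM.

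Outside lymphocytes, *Klrd1* and *Klrk1* were counted in DCs. *Klrd1* was at 76.2 CPM (162 UMIs, 140 cells) in DCs of the WT-labelled library and 273 CPM (1227 UMIs, 324 cells) in those of the KO-labelled library, a log2 ratio of 1.84 (1.60 to 2.08), against 18.5 and 23.5 CPM in TAM/monocyte cells. *Klrk1* was at 113 and 168 CPM in DCs and 22.5 and 33.2 CPM in TAM/monocyte cells. These 2 receptors thus stood above the TAM/monocyte level in DCs of both libraries, while *Klrc1*, their neighbour, was at 2.82 and 2.67 CPM. *Klrd1* and *Klrk1* were the only members with at least 100 UMIs in DCs; 1 of the 2 was higher by more than 1, where 0.386% of 5447 genes were, and 0 lower, where 1.69% were.

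Within DCs the CD94 gene differed between gates. DCs with at least 3 UMIs of *Cd209a*, which marks conventional DCs of the second type, and fewer than 3 of *Xcr1* and *Clec9a* together, which mark the first type, held *Klrd1* at 103 CPM in 54 cells labelled WT and 377 CPM in 161 labelled KO. DCs gated the opposite way held it at 21.2 CPM (5 UMIs, 12 cells) and 10.2 CPM (8 UMIs, 44 cells), against 18.5 and 23.5 CPM in TAM/monocyte cells. *Klrk1* was in both: 94.5 and 189 CPM in the *Cd209a* gate and 127 and 136 CPM in the other. DCs under both limits held *Klrd1* at 67.7 CPM in 74 cells labelled WT and 256 CPM in 118 labelled KO, and 1 cell labelled KO, past both limits, was left out. Its library difference was present in the *Cd209a* gate (1.86, 1.55 to 2.21) and in the DCs under both limits (1.91, 1.55 to 2.31). In DC cluster 13, which had *Xcr1* and cycling genes among its leading genes (7 and 21 cells), *Klrd1* was at 116 and 168 CPM (0.50, -0.28 to 1.45). These gates were set after *Klrd1* had been seen in DCs. In pDCs (48 and 70 cells) *Klrd1* was at 67.4 CPM (25 UMIs) and 271 CPM (137 UMIs), and *Klrk1* had 7 and 18 UMIs.

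*Klrb1f* and *Klra3* each had a myeloid class in which they were counted in the KO-labelled library and at 0 in the other. They were not alone in this. *Klrb1c* had 0 and 10 UMIs in DCs, and once thinned 0 of 140 DCs labelled WT and 14 of 324 labelled KO held a Ly49 UMI. *Klrb1f* had 0 UMIs in the 140 DCs labelled WT and 30 in the 324 labelled KO. The latter level was 4.72 times that of 3 counts over the DCs labelled WT, with the counting error of the 30 UMIs left out. *Klra3* had 0 UMIs in 143 cells labelled WT of the TAM cluster led by *Ccl8*, *Gas6* and *C1qa*. By the limit of 3 counts, that allows a share of up to 2.10% of cells with a UMI. Of the cells labelled KO, 31 of 134 (23.1%, 16.3 to 31.2) held 51 UMIs, with up to 9 in a cell. This level was 19.4 times that of 3 counts in the cells labelled WT, with the counting error of the 51 UMIs left out. All 31 cells held at least 10 UMIs of C1q genes, 0 held *Ncr1* and 2 held another Ly49 gene. The other 3 TAM/monocyte clusters had 11, 0 and 0 *Klra3* UMIs in the WT-labelled library and 13, 4 and 3 in the KO-labelled one.

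Other genes of the complex also differed between the libraries in NK cells. Of the 21 listed, 18 were in the table and 8 had at least 100 UMIs, of which 3 were higher and 0 lower by more than 1 in the KO-labelled library, where 0.437% and 1.19% of the 2517 genes were. *Klri2* had 2 UMIs in the WT-labelled library and 220 in the KO-labelled one, a log2 ratio of 6.36 (4.81 to 9.73); *Klrb1b*, a gene of the NKR-P1 family, 55 and 270 UMIs, at 2.18 (1.77 to 2.64); and *Klrc2* (NKG2C), which shares its 3′ end with *Klrc1*, 68 and 236 UMIs, at 1.68 (1.30 to 2.10). The list also held *Klrg1* and *Klrg2*, which lie on chromosome 6 outside the complex; *Klrg1*, a receptor of later NK cells, was lower, with 82 and 26 UMIs (-1.74, -2.46 to -1.11), and *Klrg2* had 0 UMIs in NK cells of both libraries. *Klra10*, which shares windows with *Klra3*, was under 100 UMIs, with 52 in the WT-labelled library and 2 in the KO-labelled one. By contrast *Klre1*, whose product pairs with the *Klri* products, had 565 and 554 UMIs (-0.13, -0.30 to 0.04) and *Klrb1a* 170 and 182 (-0.01, -0.32 to 0.30).

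Directions of these genes were shared by other classes for some and not for others. *Klrb1b* was higher in the KO-labelled library also in DCs (48 and 365 UMIs) and TAM/monocyte cells (25 and 64 UMIs). So was *Klri2* in T cells (6 and 44 UMIs), DCs (0 and 58 UMIs) and TAM/monocyte cells (0 and 17 UMIs). *Klrc2* was higher in NK cells but lower over all T cells, with 1094 UMIs labelled WT and 233 labelled KO (-1.58, -1.79 to -1.37), a ratio that the different mix of clusters enters. Within clusters it was lower, with an interval under 0, in 6 of 8, among them cluster 1 (403 and 31 UMIs, -2.46) and cluster 4 (353 and 40 UMIs, -1.58), and higher in cluster 0 (43 and 123 UMIs, 0.69, 0.19 to 1.23). Mouse strains are known to differ in the gene content and sequence of this complex. The KO allele of *Maoa* came from a 129S background and was crossed to C57BL/6J for more than 9 generations. *Maoa* lies on chromosome X and the complex on chromosome 6. The DNA sequence of the complex in the mice of each library was not analysed here, so whether both carried the same form of it was not tested, and a difference in transcript level cannot be told apart from one in how reads of another form are counted.

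No partner or ligand gene with at least 100 UMIs was past a log2 ratio of 1, which nothing sets apart from the shares over all genes (0.437% and 1.19%). Of 8 adaptors and phosphatases, 5 had at least 100 UMIs in NK cells and 0 were past 1; *Tyrobp*, the adaptor of the activating Ly49 receptors, was at 2406 and 2468 CPM (0.04, -0.04 to 0.11) and *Hcst*, the adaptor of NKG2D, at 564 and 757 CPM (0.42, 0.27 to 0.57). Of 8 class I and NKG2D ligand genes in the table, 4 had at least 100 UMIs and 0 were past 1; *H2-K1* was at 2117 and 2266 CPM and *H2-T23*, which encodes Qa-1, at 72.8 and 97.0 CPM in NK cells.

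By their levels over 18 cell units in each library (36 profiles, log2 of CPM plus 1, 10487 genes), the genes most like the Ly49 sum were *Ncr1* (Pearson r = 0.834), *Klrb1a* (0.824) and *Qrfp* (0.812). *Klrb1c* was most like *Klra9* (0.834), *Klra8* (0.793) and *Klra7* (0.768), and *Klrb1f* most like *Ncr1* (0.827), *Klra3* (0.815) and *Clnk* (0.803). The T cell group gave other neighbours: *Klrc1* was most like *Nkg7* (0.936), *Dapk2* (0.917) and *Sh2d2a* (0.907), *Klrk1* like *Nr4a2* (0.846), *Serpinb9* (0.840) and *Osbpl3* (0.806), and *Klrd1* like *Sh2d1a* (0.814), *Rpl27-ps3* (0.813) and *Mdp1* (0.810). Profiles of 1 library share its depth, so these are descriptions of likeness over the units.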

How the data were processed

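CD45.2+ cells of 1 library per genotype were measured with Chromium 3′ V2 chemistry; the authors counted UMIs with Cell Ranger on mm10 (version not given in the sources used here), filtered cells and normalised with Seurat. Although its description speaks of raw counts, the deposited table contains the natural log of 1 plus each cell's UMIs scaled to 10000. UMIs were recovered by dividing the exponential minus 1 by each cell's smallest step, which gave whole numbers (tolerance 0.01) for 100% of nonzero values; unused value columns numbered 0. The design assumed recoverable UMIs, and no test was made because no group has a replicate. The suffix of the barcode gave the library.

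Clustering used Seurat 5.3.0 (R 4.3.3) on genes variable in mean and dispersion, with regression on depth, 13 PCs and resolution 0.8. All Klr genes, 18 among the variable genes, were left out, leaving 581 variable genes; T cells and NK cells were clustered again likewise. A cluster was given the class of which most markers, as a share, were detected (10% of its cells, at a level over the clusters' mean) if these were at least 3, and stayed unnamed when its 10 leading genes held more markers of another class. After seeing the data, an exception was added for a cluster with at least 80% of a class's markers. It was used in the clustering of all cells only, not in those of T cells and NK cells. CD8 clusters are T cell clusters with *Cd8a* over 10 times *Cd4*. Doublets were not removed; cells with at least 3 Cd3 UMIs and 5 UMIs of myeloid genes were 480 (20.1%) and 279 (10.6%) of the libraries labelled WT and KO, 3 and 0 of them among NK cells.

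Python 3.11.15 (numpy 2.4.6, scipy 1.17.1, pandas 2.3.3, matplotlib 3.10.9) gave sums with exact Poisson and shares with exact Clopper-Pearson intervals at 95%, which cover counting error only, and log2 ratios of KO over WT with 0.5 UMIs added and the exact conditional binomial interval. The background was formed by genes of 100 or more UMIs in the cells compared. Thinning was to 3200 UMIs, the 10th percentile of NK cells rounded down. A count of 0 is given with the limit of 3 counts. The ratio step was run on simulated Poisson counts, the model its interval assumes, so spread between cells was not tested. The thinning step was run on the NK cells themselves. Positions are from GENCODE M21 (GRCm38), matched for 10 of 10 members; promoters are from RefSeq (GRCm38.p6), with *Klrd1* lacking an entry.

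The members, the lists of other genes of the complex, of adaptors and ligands, and the cell markers were chosen with earlier results of these data known. Named genes were the 10 members, genes of those lists past a log2 ratio of 1 together with *Klrg1*, *Klre1*, *Tyrobp* and *Hcst*, and the 3 genes most alike in profile. *Klrb1a*, *Klra10*, *H2-K1* and *H2-T23*, the DC gates, *Klrc2* by T cell cluster, the count without the *Klrg* genes, the *Klra3* values in TAMs and the *Ncr1* filter were chosen after values were seen. *Klrh1*, *Clec2e*, *Clec2f*, *H60c* and the markers *Trac*, *Trbc2*, *Pclaf*, *Trdc*, *Ighm* and *Iglc2* were not analysed here.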

Additional observations from a re-analysis of the deposited data

Results flagged for a closer look

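Some members had opposite directions between the libraries in NK cells and in a T cell cluster or another class. They are listed where both intervals were clear of 0, with UMIs in both libraries. The share of all genes that meet this rule was not computed, so the number of members is not read as a result. The differences themselves were not tested, since each genotype has 1 library. *Klra8* was higher in the KO-labelled library in NK cells (log2 ratio 1.59) and lower in the naive-like CD8 T cluster 0 (-1.45), but higher in the cycling CD8 T cluster 4 (2.999) and over all CD8 clusters (0.66). *Klra7* was lower in NK cells (-0.40) and higher in T cluster 0 (0.93) and in TAM/monocyte cells (0.87, from 26 and 36 UMIs), though not in TAM/monocyte cluster 1 (-0.16, -1.32 to 0.94, from 18 and 13 UMIs). *Klrc1* was higher in NK cells (1.42) and lower in the checkpoint-high CD8 T cluster 1 (-0.30). It was also lower in T cluster 3 (-0.66, from 143 and 54 UMIs) and the *Foxp3*-led T cluster 6 (-1.39, from 40 and 12 UMIs). T cluster 3 was closest to the CD4 marker list but had *Cd8a* at 307 CPM and *Cd4* at 82.2 CPM. *Klrk1* was higher in NK cells (0.25) and lower in T cluster 3 (-0.31, from 267 and 129 UMIs) and T cluster 6 (-0.75, from 63 and 30 UMIs). *Klrd1* was lower in NK cells (-0.23) and higher in T cluster 0 (0.48), DCs (1.84), pDCs (1.99, from 25 and 137 UMIs) and TAM/monocyte cells (0.34). Within TAM/monocyte clusters *Klrd1* was at -0.24 (-0.73 to 0.23) in cluster 1, 0.01 (-0.50 to 0.53) in cluster 9, 1.001 (0.22 to 1.73) in cluster 3 and 1.38 (0.57 to 2.38) in cluster 5. The mix of these clusters differed between the libraries (342 and 119 cells in cluster 3) and enters both TAM/monocyte ratios.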

How the results depend on the processing

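No paired analysis was possible because each genotype has 1 library, and for the same reason no library could be left out. The 11 log2 ratios in NK cells (10 members and their Ly49 sum) had the same sign under the 15 alternatives, except *Klra4* (-0.01 to 0.18); *Klra8* ranged from 1.51 to 1.74, *Klrc1* from 1.22 to 1.70, *Klrb1c* from 0.85 to 1.01 and *Klra7* from -0.55 to -0.31. The Ly49 sum in NK cells had a log2 ratio of 0.20 without cells with a Cd3 UMI. Its level was 1808 and 2168 CPM (libraries labelled WT and KO) as a mean over cells and 2566 and 3169 CPM without ribosomal and mitochondrial genes in the scaling. In CD8 T cells it was 45.2 and 126 CPM as reported. In the WT-labelled library it was 37.6 at resolution 0.5, 40.5 at resolution 1.2, 37.9 with 20 principal components, 40.4 without depth regression, 40.0 with Klr genes kept among the variable genes, 70.5 without suspected doublets, 76.8 as a mean over cells and 71.7 without ribosomal and mitochondrial genes. In the KO-labelled library it was 115 at resolution 1.2, 108 with Klr genes kept, 165 without suspected doublets, 187 as a mean over cells and 214 without ribosomal and mitochondrial genes; the cause was not tested. At least 2 Ly49 genes were in 40.9% and 45.0% of NK cells when counted from 2 UMIs, and in 69.5% of those labelled KO without the subclusters led by ILC1 or T cell markers. All 5 were in 17.1% of NK cells labelled WT as deposited, and in 0.552% and 0% from 2 UMIs. The ratio of *Klrk1* between ILC1-like and other NK cells changed sign (-0.040) at resolution 0.5. Of all 3629 recomputed values, 3170 stayed within the counting interval of the value reported, 458 moved out of it and 1, that of *Klrk1*, changed sign from a ratio whose interval left out 0. Ratios with a changed sign were 3 in all, the others being *Klra4* in NK cells without a Cd3 UMI (-0.01) and *Klrb1c* between ILC1-like and other NK cells at resolution 0.5 (-0.51). The one mix of subclusters, the subclusters left out, the shared barcodes, the second random draw and the exception to the naming rule were chosen after seeing the data. Depth limits the members with few UMIs per cell: a gene not counted in a cell of 3200 UMIs may be expressed there.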
